A study of Homo sapiens with 12 samples.

Results

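The comparison described here sets 3 libraries of HCT116 cells held for 24 h at 1% O2 against 3 libraries of the same cells at 21% oxygen (0 h). They are 6 of the 12 libraries of a time course in reduced oxygen, and were chosen by their labels alone. HCT116 is an established colorectal cancer cell line, grown here in RPMI medium with fetal bovine serum and placed in a hypoxia workstation 24 h after plating. The other 6 libraries come from 1 h and 2 h at 1% O2, 3 each, and those of 2 h serve as a second point of comparison. No genotype or drug distinguished the groups, and every sample was the same line, so the replicates are separate samples of 1 cell line. The labels do not state how long the 0 h cells had been plated when collected, so an effect of oxygen and one of a longer culture cannot be told apart. The labels do not say whether the 3 samples of a group were separate cultures. A supplementary legend of the study calls them biological replicates without further detail. The p-values therefore measure the spread between the sequenced samples only.

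Cells sense oxygen mainly through hydroxylases of the EGLN family, which use oxygen to mark the alpha subunits of the hypoxia-inducible factors (HIF) for destruction by the VHL ubiquitin ligase. When oxygen falls, HIF1A or EPAS1 (HIF-2 alpha) protein persists, pairs with ARNT and binds a short element in promoters and enhancers, the hypoxia response element. Its known targets raise glucose uptake and glycolysis, restrain pyruvate entry into mitochondria, promote mitophagy and vessel growth, and remodel collagen. Low oxygen is also known to restrain growth through mTORC1 and MYC, with less ribosome production and less DNA replication.

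Abundance was given as FPKM, fragments scaled by transcript length and by the mapped fragments of the library, estimated by Cufflinks from strand-specific poly(A) libraries. The value of a gene is the summed FPKM of its annotated transcripts (same splice sites as the reference, or at least 1 shared) that exceeded an FPKM of 0.5 in at least 3 of the 12 libraries. A gene was called higher or lower if its log2 fold change passed 1 in either direction with a limma adjusted p under 0.01, fitted on log2(FPKM + 0.5), a scale that understates the change of low genes. Read counts were not analysed, so no counting interval accompanies a value. An SD is the spread of 3 libraries, whereas each SE and p-value of the fit uses the spread within the groups of all 12 libraries. Uneven 1 h or 2 h libraries therefore widen the SE of 24 h against 0 h. DDIT4, with 71.7, 126 and 537 FPKM at 2 h, is such a gene. Across genes, which are not independent replicates, Pearson's r ranged from 0.981 to 0.986 among the 0 h libraries, from 0.964 to 0.977 among those of 24 h and from 0.902 to 0.933 across the groups. Transcripts under 300 bases held between 57.0% and 70.4% of all FPKM in a 0 h library and between 64.9% and 87.6% in a 24 h library, with the highest share in 24 h replicate 3, and the calls were also made after rescaling and with transcripts of at least 300 bases only. Of 14 colorectal epithelial markers listed 9 passed the filter, and 2 were called higher at 24 h, CDH1 and ELF3, and 0 lower. Of those not called, EPCAM averaged 279.7 FPKM at 0 h and 229 at 24 h, and KRT18 603 and 516. Of 16 stromal and immune markers in the table, 13 stayed under an FPKM of 0.5 in all 6 libraries, and PTPRC, CD3E and COL1A2 were listed at 0 throughout. A listed 0 need not mean absence, since the 13 protein-coding genes of the mitochondrial genome, which cells normally use, were listed at 0 in 10 of the 12 libraries. The other 3, COL1A1, ACTA2 and CD68, were called higher at 24 h, and the summed level of the list was 5.41 to 6.16 FPKM at 0 h and 21.3 to 27.9 at 24 h. CD68 shares its locus with other genes, and the part of these markers in the results was not tested.

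At 24 h, 1315 of the 15758 genes tested were higher than at 0 h (8.34%) and 1654 were lower (10.5%). The genes that rose included regulators of metabolism and mitophagy such as DDIT4, PFKFB4 and BNIP3, while those that fell included factors of ribosome assembly, DNA replication, mitochondrial import and protein folding. Large changes were mostly upward: 220 genes rose more than 4-fold and 101 fell more than 4-fold, and beyond 8-fold there were 50 and 5. Counts also differed by level, taken as the mean FPKM over all time points. Among genes with a mean FPKM of at least 50, 100 of 2355 rose and 345 fell, whereas under 5 FPKM 653 of 5881 rose and 369 fell. That mean includes the 24 h libraries, and the filter admits genes that were high only there. A gene under 0.5 FPKM at 0 h could not be called lower on this scale. Level and direction are therefore not independent in this split. Of the annotated classes, 1101 of 11461 protein-coding genes were higher and 1227 lower. Among long noncoding genes the counts were 105 and 69 of 983, and among pseudogenes, whose reads may belong to a near-identical parent, 65 and 319 of 2642. The 3 libraries of 24 h lay wholly above those of 0 h for 4003 genes (25.4%) and wholly below for 5365 (34.0%). The split of the calls depended on how libraries were scaled. Higher genes made up 44.3% of the calls with the values as deposited, 55.6% with median-of-ratios scaling and 5.32% after rescaling all transcripts to the same sum (TPM), where the median log2 fold change of all genes moved from -0.09 to -0.71. Directions below hold for the values as deposited, and medians that change sign under TPM are given with both values. An assembly locus with several gene names can divide reads among neighbours, which applied to 2378 of the genes tested, including ALDOC, AXIN2, CD68, CDC6, CLSPN, EGLN2, EIF4A2, ENO2, FANCD2, GTF2H2, GTF2H2B, HIF1A, HILPDA, HSPA1A, HSPA1B, HSPE1, LOXL2, MAFK, MDM2, MXD1, MXD3, P4HA1, PDK3, PFKFB4, PLK1, PSME3, RELB, RPL13A, RRM2, RTEL1, SCD, SDHAF2, SFXN2, SLC25A37, SRSF1, TIPIN, TNFRSF6B and VPS9D1-AS1 among those named below.

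**Figure D1:**
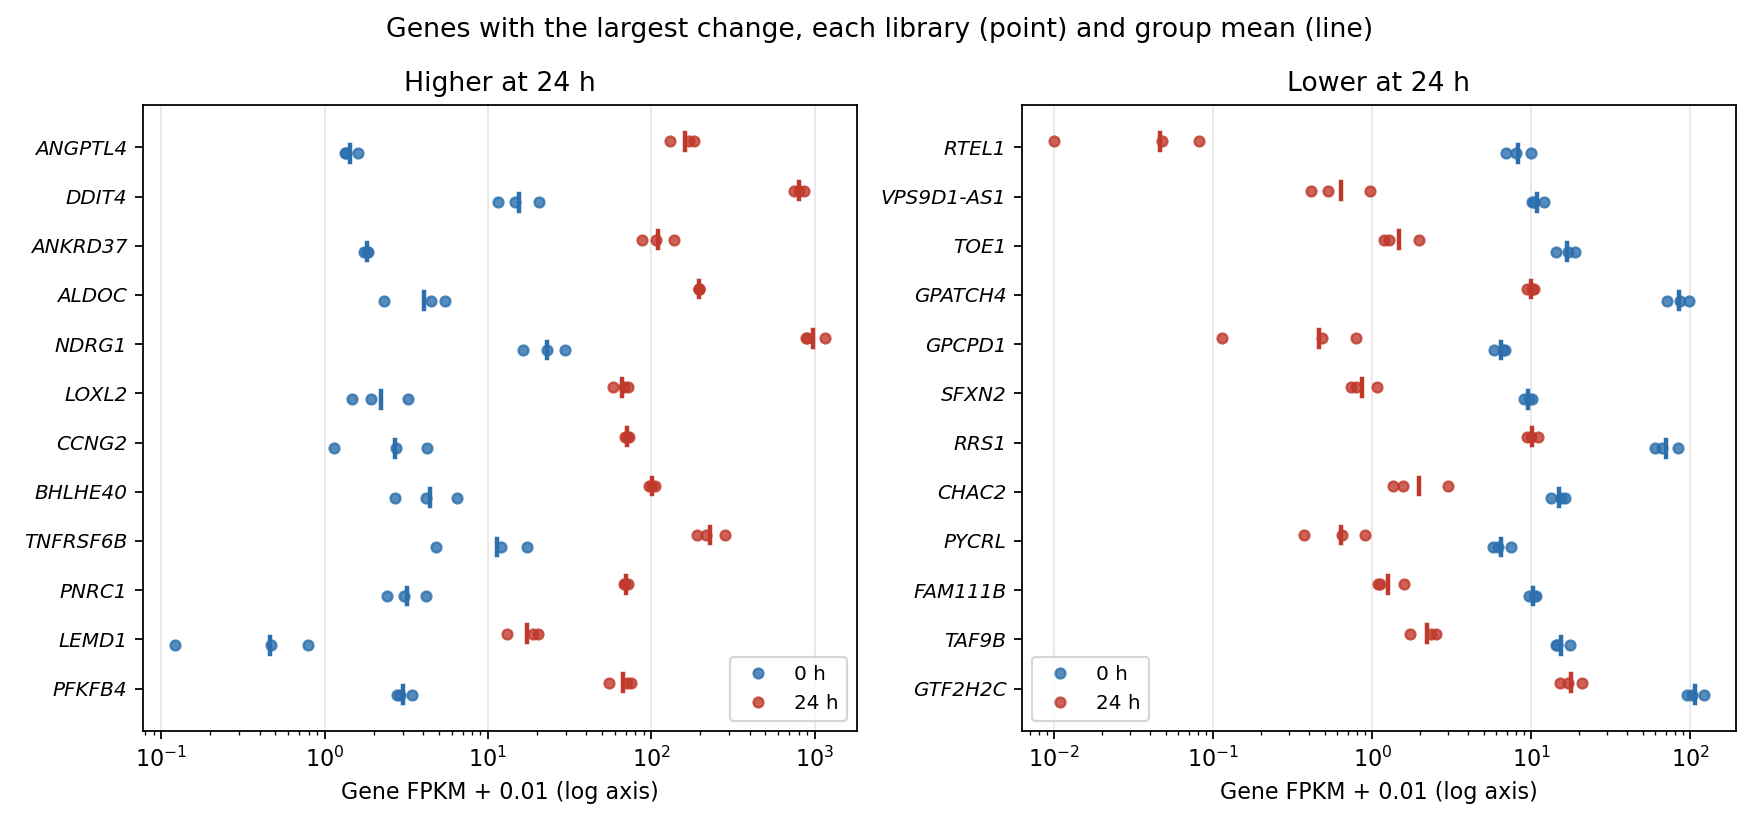
FPKM of each library (points) and group mean (lines) on a log axis, with 0.01 added, for the 12 genes with the largest rise and the 12 with the largest fall under the naming rule. The 24 h points of ANGPTL4 lie between 130.02 and 183, and no gene shows overlap between 0 h and 24 h, which the choice of genes required.

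The rise was steepest in ANGPTL4, a secreted inhibitor of lipoprotein lipase (ENSG00000167772; chromosome 19, 8428173 to 8439254, GRCh37). It measured 1.6, 1.35 and 1.33 FPKM in the 3 libraries at 0 h and 130.02, 169.7 and 183 at 24 h (log2 fold change 6.38 ± 0.54 SE, adjusted p = 2.2e-06). DDIT4, an inhibitor of mTORC1, followed with 11.6, 14.6 and 20.6 FPKM at 0 h and 801, 863 and 751 at 24 h (log2 fold change 5.68 ± 0.75 SE, adjusted p = 5.1e-05). All 24 h libraries of these genes stood far above the 0 h range. CCNG2, an atypical cyclin that slows the cell cycle, measured 1.12, 2.74 and 4.25 FPKM at 0 h and a narrow 70.7, 73.6 and 69.4 at 24 h. The transcriptional repressor BHLHE40 went from 4.43 ± 1.88 to 101 ± 3.95 FPKM (SD, n = 3 each; log2 fold change 4.43). LOXL2, a lysyl oxidase that cross-links collagen, went from 2.21 ± 0.93 to 66.3 ± 7.04 (SD, n = 3 each; log2 fold change 4.67). The other genes of this group were ANKRD37, ALDOC, NDRG1, TNFRSF6B, PNRC1, LEMD1 and PFKFB4, with log2 fold changes from 4.26 to 5.57. LEMD1, a cancer-testis antigen, was nearly silent before, with 0.112, 0.781 and 0.458 FPKM at 0 h against 20.2, 18.8 and 13 at 24 h.

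The promoters of these genes are shown because the hypoxia response element is the sequence through which HIF acts. The RefSeq promoter table (GRCh38.p14, 250 bases before to 50 after the first listed start of a gene) held 8976 of the 15758 genes tested under the same symbol. The core was searched as ACGTG or GCGTG on both strands; it may also lie inside the E-box CACGTG. The windows below give the match nearest the start site in 5 genes that rose, 5′ to 3′ in the direction of transcription, with the match in capitals (CACGT is ACGTG on the opposite strand).
ANKRD37: gtgtttgtgtACGTGcggccgtggc
CCNG2: gcggggagtcACGTGccccgccccc
BHLHE40: cagggtagaaCACGTagctccaacc
CA9: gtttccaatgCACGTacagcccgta
PGK1: ctccggagcgCACGTcggcagtcgg
They lie at chr4:185396688-185396712, chr4:77157168-77157192, chr3:4979278-4979302, chr9:35673900-35673924 and chrX:78104266-78104290, all on the + strand. LEMD1 and PDK1, which also rose, held no match, and NDRG1, LOXL2 and VEGFA were not matched to the table. Of the promoters matched, the core occurred in 29 of 33 (87.9%) of the HIF-inducible list and 15 of 24 (62.5%) of the glycolysis list, which were mostly higher, and in 51 of 58 (87.9%) of the ribosome biogenesis factors, which were mostly lower. It occurred in 60.2% of all genes higher at 24 h, 72.6% of genes lower and 64.3% of genes tested. Over the whole table it occurred in 48.4% of promoters. Genes that rose thus held the core no more often in this window than genes that fell, and a match is not a binding site.

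The sensing machinery itself changed in mixed directions. Of the HIF subunits and oxygen sensors, 5 of the 16 members tested were higher and 1 lower, or 1 and 4 under TPM (median log2 fold change -0.03), against -0.09 over all genes. HIF1A measured 56.6, 62.9 and 62.4 FPKM at 0 h and 28.4, 27.2 and 35.3 at 24 h (log2 fold change -1.0 ± 0.12 SE, adjusted p = 2.3e-05). Its 24 h values were all lower, but the change stopped just short of the fold threshold. EPAS1 rose from 5.26, 3.7 and 4.58 to 21.7, 16.6 and 19.9 FPKM (log2 fold change 1.99 ± 0.20 SE, adjusted p = 8.3e-06). The prolyl hydroxylases divided: EGLN3 rose from 1.76 ± 0.35 to 25.8 ± 7.47 FPKM and EGLN1 from 18.3 ± 0.565 to 70.7 ± 0.641, while EGLN2 fell from 22.9 ± 0.902 to 11.1 ± 1.79 (SD, n = 3 each). Without 24 h replicate 2 or 3 the log2 fold change of EGLN2 was -0.96, which was not called, and that of HIF1A was called without 0 h replicate 1 (-1.04) or 24 h replicate 3 (-1.11). CITED2, a competitor of HIF for its coactivator, rose with a log2 fold change of 1.28, and SIAH2, a ubiquitin ligase for EGLN proteins, with 1.08. VHL, which targets HIF for destruction, had -0.25 and was not called.

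Known HIF targets had the highest median of all lists. Of this list, 35 of the 45 members tested were higher and 1 lower (median log2 fold change 2.17). Its summed FPKM went from 1149.9 ± 6.55 to 5704 ± 272 (SD, n = 3 each). CA9, a carbonic anhydrase that regulates pH at the cell surface, was listed at 0.0249, 0 and 0.14 FPKM at 0 h and 4.36, 4.19 and 3.73 at 24 h. It remained a low transcript after 24 h, with no overlap between groups (log2 fold change 3.06). VEGFA, the vascular growth factor, rose from 15.2, 17.5 and 17.2 to 71.3, 65.5 and 58.5 FPKM (log2 fold change 1.94), and ADM, a vasodilator peptide, from 25 ± 1.42 to 282 ± 56.2 (SD, n = 3 each; 3.45). The mitophagy receptors BNIP3 and BNIP3L reached similar levels at 24 h: BNIP3 went from 19.6, 17.8 and 22 to 177, 235 and 206 FPKM and BNIP3L from 5.24, 8.87 and 15 to 169, 174 and 169. Not all listed targets moved: EDN1 had a log2 fold change of -0.32, BCL2L11 0.13 and KISS1R -0.84, none of them called, except KISS1R without 0 h replicate 1 (-1.02) or 24 h replicate 1 (-1.05). HIGD1A, a mitochondrial protein that is known as a HIF target, was the exception and fell from 89.9, 81.3 and 84.9 to 42.7, 38.1 and 31.3 FPKM (log2 fold change -1.19 ± 0.13 SE, adjusted p = 1.5e-05).

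**Figure D2:**
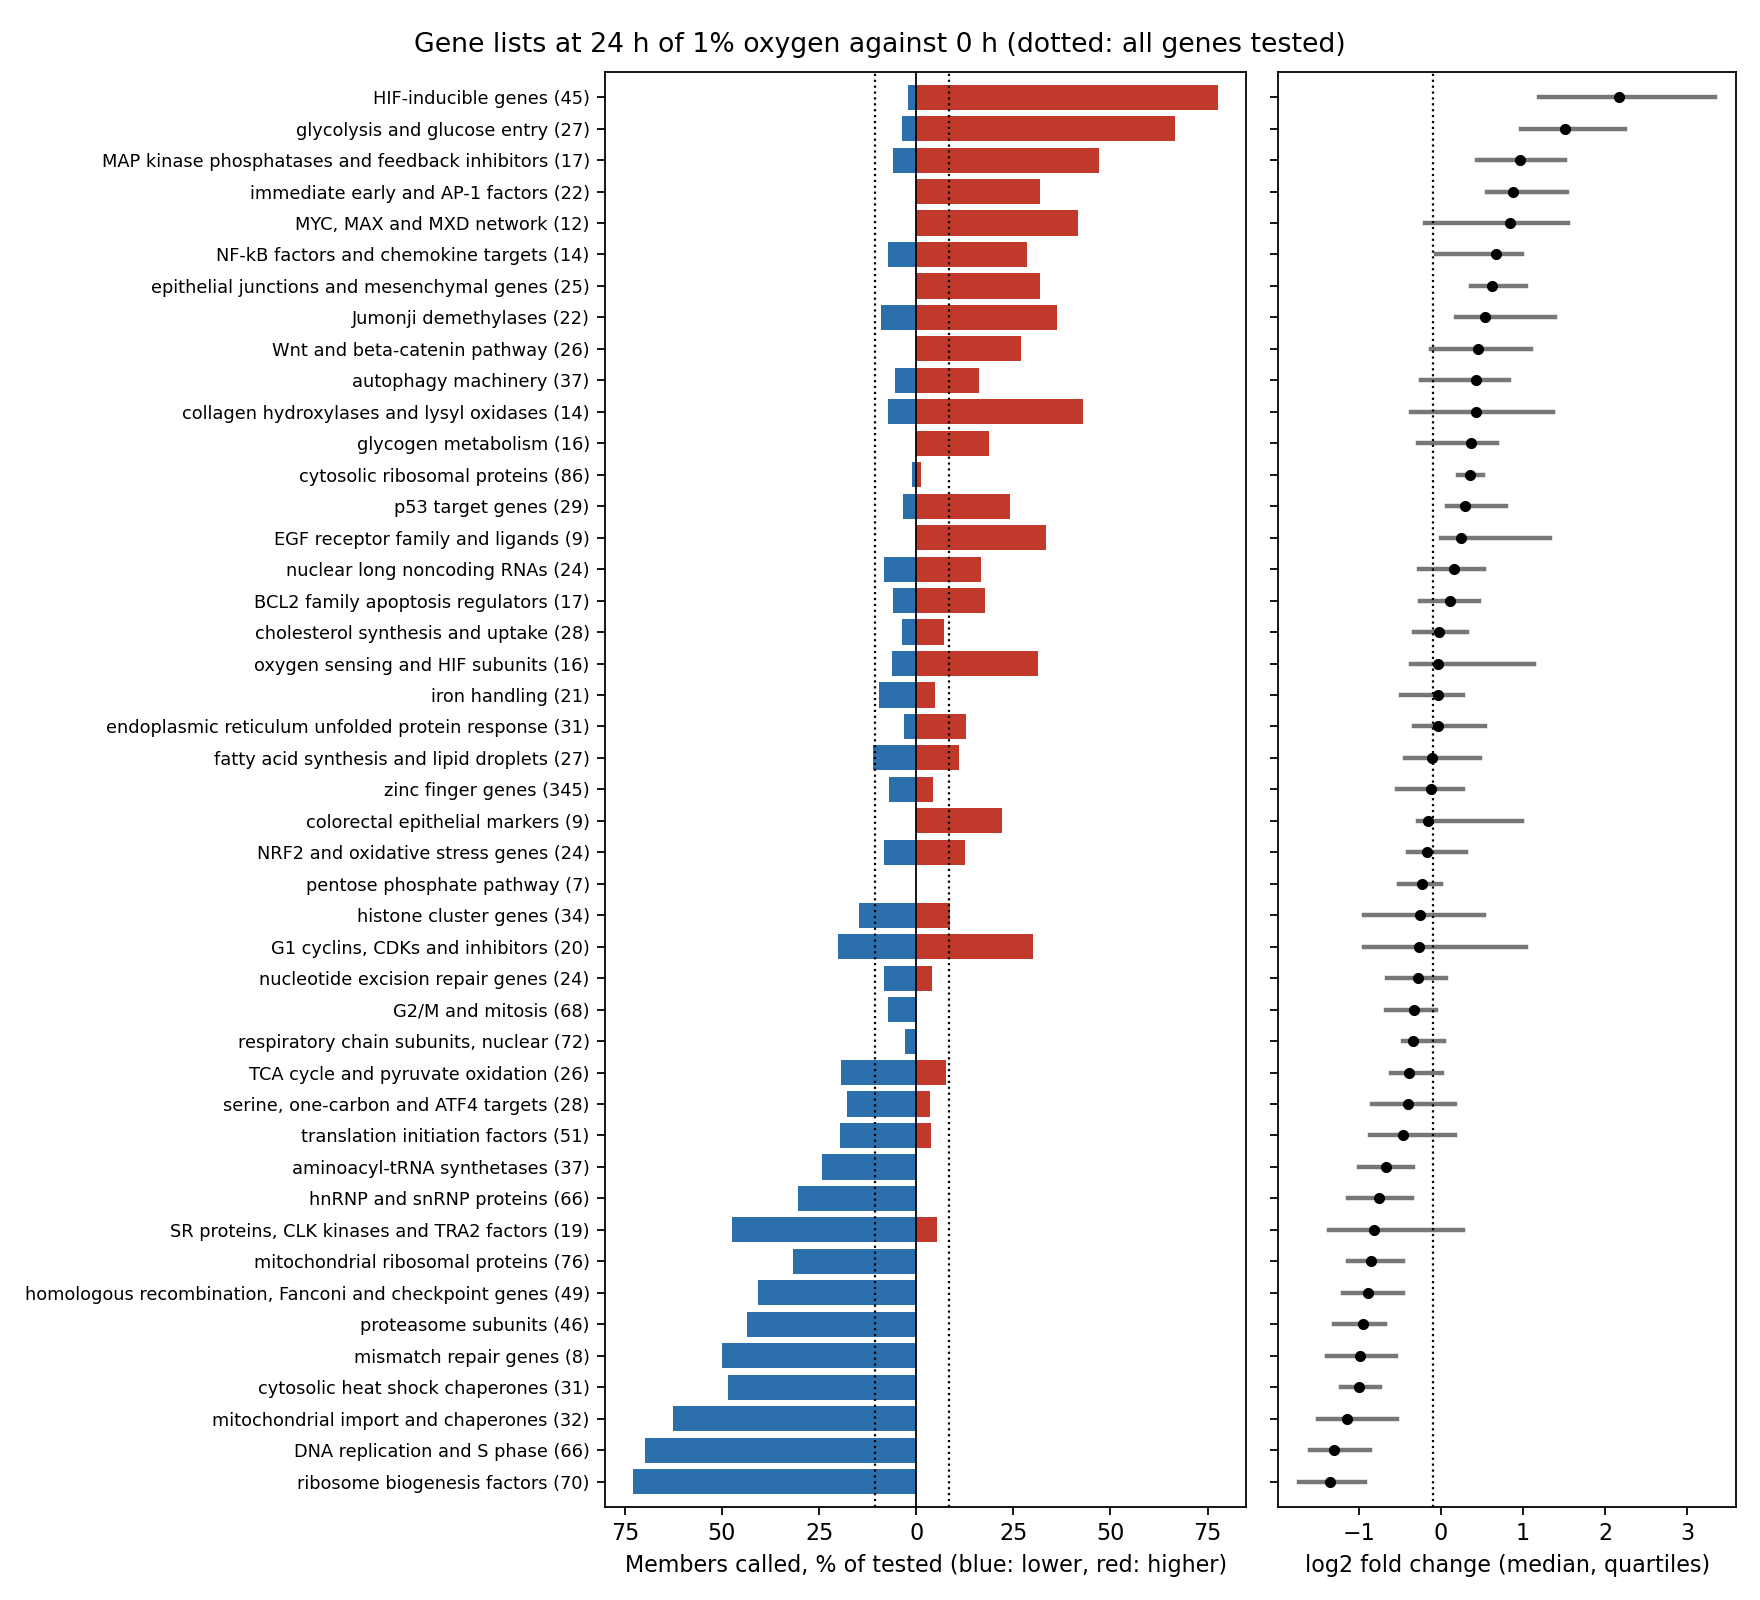
Left, percentage of tested members (number in brackets) called lower (blue) or higher (red) at 24 h for 45 lists; right, median log2 fold change with quartiles; dotted lines mark all genes tested. HIF-inducible genes and glycolysis lie at the top and ribosome biogenesis and DNA replication at the bottom; under TPM the medians of 12 of the positive lists became negative.

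Most genes of glucose entry and glycolysis were higher with the values as deposited. Of this list, 18 of the 27 members tested were higher and 1 lower, or 7 and 1 under TPM (median log2 fold change 1.52, 0.66 under TPM). Their summed FPKM went from 8471 ± 125 to 23956 ± 1356 (SD, n = 3 each). The transporter SLC2A1 (GLUT1) measured 75.7, 74.7 and 72.9 FPKM at 0 h and 335, 311 and 341 at 24 h (log2 fold change 2.13). Hexokinase HK2 spread widely after hypoxia, at 55.3, 96.9 and 139 FPKM against 22.5, 18.5 and 17.2 before (log2 fold change 2.21, standard error 0.28). PGK1, which makes ATP in the pathway, went from 403, 384 and 394 to 1908, 2094 and 1775 FPKM, and LDHA, which makes lactate, from 908, 818 and 844 to 3227, 2809 and 2453. The groups were well separated for both enzymes. Among isoenzymes, ALDOC had a log2 fold change of 5.5, SLC2A3 3.87 and ENO2 3.68, against 2.08 for ALDOA and 1.1 for ENO1, which was not called without 24 h replicate 1 (0.97). PFKFB4, which makes the activator of phosphofructokinase, rose from 3.02 ± 0.35 to 67.2 ± 10.4 FPKM (SD, n = 3 each). The pyruvate dehydrogenase kinases, which close the entry of pyruvate to mitochondria, differed: PDK1 had 3.22, PDK3 1.91 and PDK4 1.52, all called, and PDK2 -0.09, not called. Of the monocarboxylate carriers, SLC16A1 (MCT1) fell with -1.05, and SLC16A3 (MCT4), the lactate exporter, had 0.86 and was not called. SLC16A1 was not called without 0 h replicate 1 (-0.98) or 24 h replicate 2 (-0.99). In glycogen metabolism 3 of the 16 members tested were higher and 0 lower, or 1 and 3 under TPM (median log2 fold change 0.37), a median that was -0.32 under TPM. The branching enzyme GBE1 rose from 17.5 ± 0.884 to 66.2 ± 10.3 FPKM, and PPP1R3B, which targets a phosphatase to glycogen, from 1.73 ± 0.347 to 15.3 ± 3.52 (SD, n = 3 each), while the synthase GYS1 had 0.76 and was not called. None of the 7 pentose phosphate genes was called with limma, with 1 higher and 3 lower at an unadjusted p under 0.05 (25.2% and 34.0% of all genes) and 1 higher and 3 lower by the adjusted p with no minimum fold (16.6% and 24.0% of all genes), and 1 was lower without 0 h replicate 3 or 24 h replicate 2. Transketolase (TKT) had 0.63.

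Mitochondrial genes changed to different degrees. Of the TCA cycle and pyruvate oxidation genes, 2 of the 26 members tested were higher and 5 lower (median log2 fold change -0.38). Without 24 h replicate 3 there were 3 lower, as MPC1 (-0.83) and SDHAF2 (-0.96) were not called. Fumarase (FH) fell from 58.1, 59.3 and 56.4 to 26.1, 22.3 and 21.4 FPKM, and DLAT, a subunit of pyruvate dehydrogenase, had -1.24. Pyruvate carboxylase (PC) rose from 2.28, 2.91 and 1.57 to 11.3, 7.85 and 7.14 FPKM (log2 fold change 1.75 ± 0.37 SE, adjusted p = 0.0015) and IDH2 from 9.43 ± 1.93 to 29.8 ± 1.41 (SD, n = 3 each). Few nuclear genes for respiratory chain subunits passed the fold threshold: 0 of the 72 members tested were higher and 2 lower (median log2 fold change -0.33). All 24 h libraries lay under all 0 h libraries for 37 of the 72, beside 34.0% of all genes, and above them for 7, beside 25.4%. By the adjusted p with no minimum fold 29 were lower and 3 higher. The 2 called were cytochrome c (CYCS), from 383, 322 and 329 to 155, 144 and 133 FPKM, and NDUFV3 (log2 fold change -1.14). The machinery that builds mitochondria moved further. Of the mitochondrial ribosomal protein genes, 0 of the 76 members tested were higher and 24 lower (median log2 fold change -0.85), and of the import and chaperone genes 0 of the 32 members tested were higher and 20 lower (median log2 fold change -1.14). TOMM40, the channel of the outer membrane, fell from 141, 127 and 113 to 39.3, 28.2 and 28.9 FPKM, and the small carrier TIMM10 had -1.83. The matrix chaperonin pair fell as well, HSPD1 from 1307, 1148 and 1156 to 539, 622 and 623 and HSPE1 with -1.71, whereas the receptor TOMM20 had 0.3 and was not called. HSPD1 was not called without 0 h replicate 1 (-0.96) or 24 h replicate 1 (-0.95).

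Genes of ribosome assembly fell, and few ribosomal protein genes were called. Of the ribosome biogenesis factors, 0 of the 70 members tested were higher and 51 lower (median log2 fold change -1.35). For 66 of them all 24 h libraries lay under all 0 h libraries, beside 34.0% of all genes. RRS1, needed for the large subunit, fell from 83, 66.3 and 59.7 to 9.33, 9.85 and 10.9 FPKM (log2 fold change -2.72 ± 0.19 SE, adjusted p = 5.4e-07). NOP56, a core protein of box C/D ribonucleoproteins, went from 581, 517 and 466 to 142, 144 and 126 FPKM (log2 fold change -1.92 ± 0.14 SE, adjusted p = 8.2e-07). In both genes the groups were far apart. POLR1B, a subunit of RNA polymerase I, had -1.36 and DKC1, the pseudouridine synthase, -1.02, which was not called without 0 h replicate 1 (-0.99) or 24 h replicate 1 (-0.98). The methyltransferase FBL, a partner of NOP56, measured 377, 389.5 and 344 FPKM at 0 h and 372, 356 and 322 at 24 h, with overlapping groups (log2 fold change -0.08). Of the cytosolic ribosomal protein genes, 1 of the 86 members tested was higher and 1 lower (median log2 fold change 0.36, -0.51 under TPM). With the values as deposited, all 24 h libraries lay above all 0 h libraries for 39 of the 86, beside 25.4% of all genes. They lay under them for 4, beside 34.0%. By the adjusted p with no minimum fold 31 were higher and 3 lower, beside 16.6% and 24.0% of all genes. RPL3 had 1089, 1060.4 and 1087 FPKM at 0 h and 2004, 2161 and 1809.6 at 24 h, higher in every library but under the fold threshold (log2 fold change 0.88, limma adjusted p = 3.8e-05). The 2 called were RPL13A (1.19) and the paralog RPL26L1 (-1.41). Many ribosomal protein genes have processed pseudogenes that can share their reads. Of the initiation factors 2 of the 51 members tested were higher and 10 lower (median log2 fold change -0.46): EIF4B and EIF4A2 rose (1.11 and 1.04), and EIF2B1, EIF3J and EIF5 were among those that fell (-1.61, -1.56 and -1.48). EIF4E, the cap-binding protein, had -0.81 and was not called. The call of EIF4A2 ended without 0 h replicate 3 (0.97) or 24 h replicate 2 (0.89). Of the aminoacyl-tRNA synthetases 0 of the 37 members tested were higher and 9 lower (median log2 fold change -0.66), led by WARS, from 77.1 ± 2.14 to 20.7 ± 2.76 FPKM (SD, n = 3 each).

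**Figure D3:**
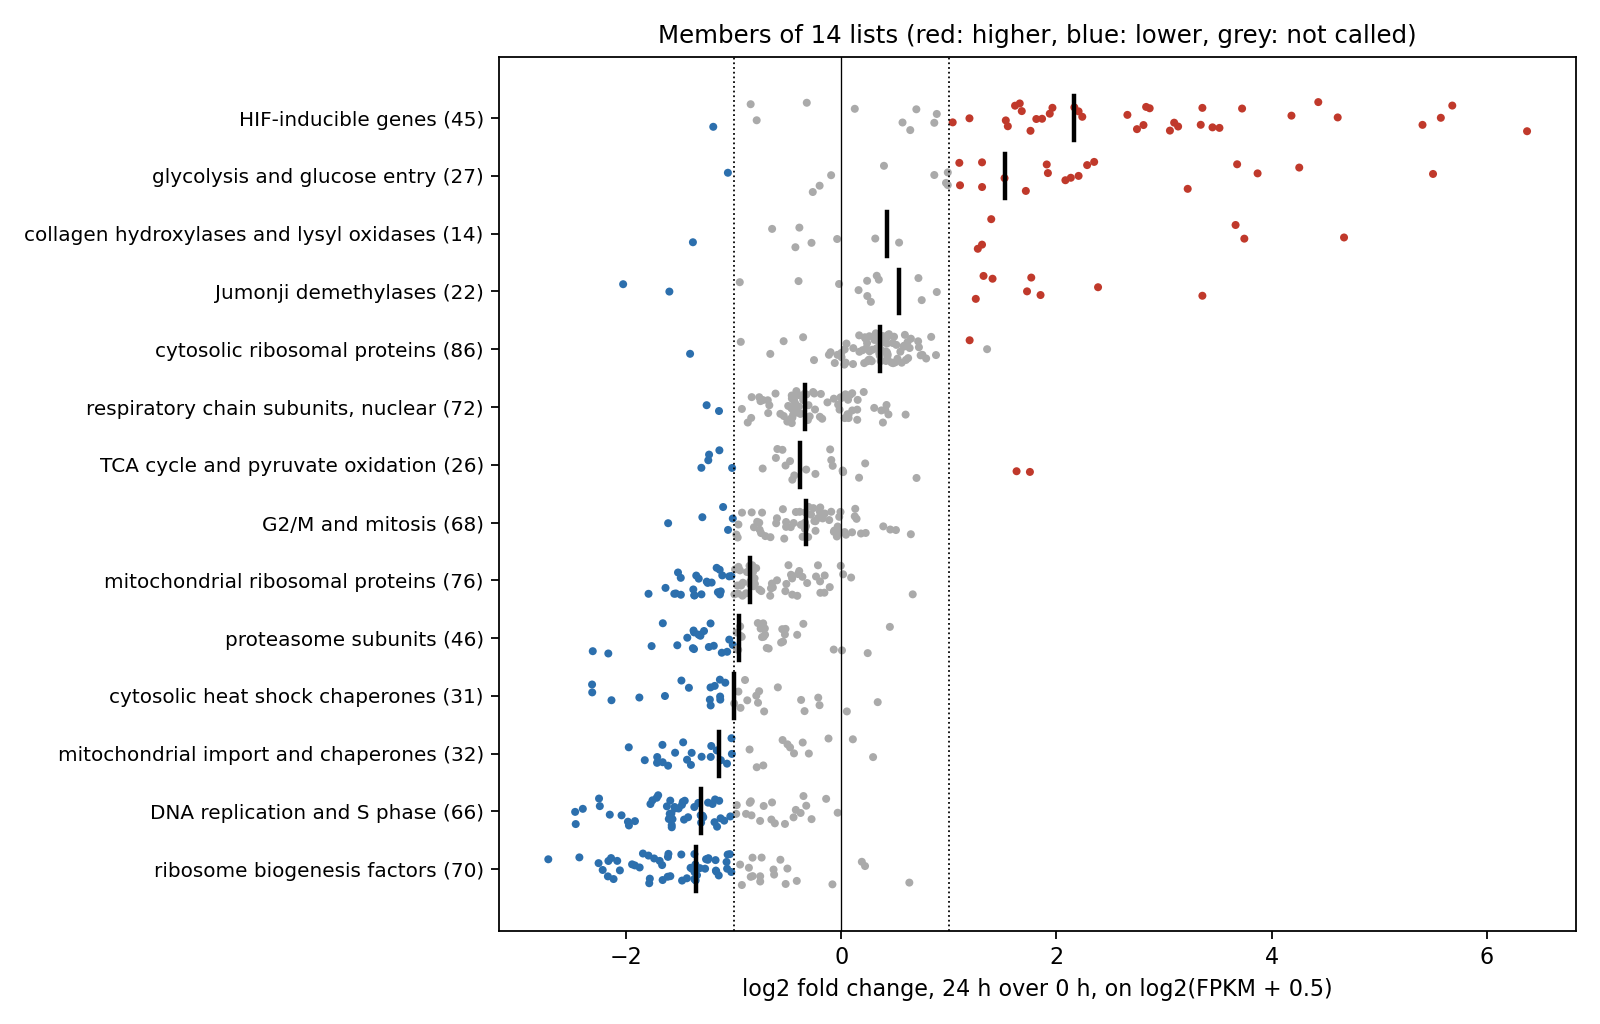
Log2 fold change at 24 h over 0 h of every tested member (points; red higher, blue lower, grey not called) of 14 lists, with the median as a bar and dotted lines at the fold threshold. Most ribosomal proteins and respiratory chain subunits lie between the thresholds, while ribosome biogenesis factors and replication genes lie mostly under -1; under TPM the medians of ribosomal proteins, collagen hydroxylases and Jumonji demethylases were negative.

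Cytosolic chaperones and the proteasome had calls in the lower direction only. Of the cytosolic heat shock chaperones, 0 of the 31 members tested were higher and 15 lower (median log2 fold change -1.0). The constitutive HSPA8 fell from 2473, 2253 and 2177 to 539.9, 605 and 436 FPKM (log2 fold change -2.14 ± 0.17 SE, adjusted p = 1.6e-06). HSPA1B, whose near-identical copy HSPA1A shares reads with it and gave the same fold change, went from 436, 371 and 349 to 106, 65.5 and 65.1 FPKM. At 2 h all libraries already lay under the 0 h range, with 1703, 1326 and 1007 FPKM for HSPA8 and 187, 136 and 68.5 for HSPA1B, though neither was called there. HSP90AA1 and the J-domain cochaperone DNAJB1 had log2 fold changes of -1.13 and -1.42. Of the proteasome genes 0 of the 46 members tested were higher and 20 lower (median log2 fold change -0.95). The largest falls were those of the assembly chaperone PSMG1 (139 ± 16.9 to 27.6 ± 4.15 FPKM, SD, n = 3 each) and the activator PSME3 (-2.17), ahead of the regulatory subunit PSMD1 (-1.43).

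The endoplasmic reticulum and amino acid stress programmes showed no common direction. In the unfolded protein response 4 of the 31 members tested were higher and 1 lower, or 0 and 5 under TPM (median log2 fold change -0.04), and the chaperone HSPA5 had -0.25 and XBP1 -0.11, neither called. The genes higher were CREB3L2, EDEM1, ERO1LB and SEC24D (1.03 to 1.38), and SDF2L1 was lower (-1.25). Without 0 h replicate 1 or 24 h replicate 3 there were 2 higher. Of the ATF4 and serine pathway genes 1 of the 28 members tested was higher and 5 lower (median log2 fold change -0.39). The serine enzyme PSAT1 fell from 68.8, 74.8 and 95.9 to 17.7, 23.9 and 23.2 FPKM, the glutamine carrier SLC38A2 rose from 159.5 ± 26.9 to 479.9 ± 22.9 (SD, n = 3 each), and ATF4 itself had -0.27. DDIT3 (CHOP) differed widely between the 24 h libraries, at 6.9, 43.9 and 19.8 FPKM, and was not called. Of the autophagy genes 6 of the 37 members tested were higher and 2 lower, or 1 and 5 under TPM (median log2 fold change 0.43), a median that was -0.36 under TPM. The cargo receptor OPTN rose from 5.22 ± 1.12 to 30.4 ± 8.22 FPKM and GABARAPL1 from 12.6 ± 0.516 to 39.8 ± 3.1 (SD, n = 3 each). The kinase ULK1 had 1.25, and the cargo receptor SQSTM1 had 0.14 and was not called. Of the oxidative stress genes 3 of the 24 members tested were higher and 2 lower, or 0 and 5 under TPM (median log2 fold change -0.17): the small MAF factors MAFF and MAFK rose (1.96 and 1.04), as did catalase (CAT, 1.05), and the cystine carrier SLC7A11 and the glutathione enzyme GCLM fell (-1.53 and -1.14). In iron handling 1 of the 21 members tested was higher and 2 lower (median log2 fold change -0.03), with the mitochondrial iron carrier SLC25A37 higher (1.02). The transferrin receptor TFRC was uneven at 24 h, with 95.1, 48.2 and 29.3 FPKM against 111, 112 and 133 at 0 h, and was called lower (log2 fold change -1.2, limma adjusted p = 0.0048). Several of these calls were close to a threshold, and leaving out 1 library ended them. For TFRC this held for 5 libraries, with log2 fold changes from -0.80 without 24 h replicate 3 to -1.24 and adjusted p from 0.011 to 0.019. For ERO1LB it also held for 5, with 0.76 without 0 h replicate 1 to 1.30 and adjusted p from 0.014 to 0.029. SLC7A11 lost its call without any one of 4 libraries, with -1.07 without 24 h replicate 1 to -1.52 and adjusted p from 0.012 to 0.018, and CAT likewise, with 0.92 without 0 h replicate 1 to 1.04 and adjusted p from 0.013 to 0.018. GCLM lost its call without 0 h replicate 1 (-0.99) or 24 h replicate 1 (-0.96), CREB3L2 without 0 h replicate 1 (0.93) or 24 h replicate 3 (0.84), MAFK without 24 h replicate 3 (0.99) and SLC25A37 without 0 h replicate 3 (0.94). Genes of fatty acid synthesis and lipid droplets had no common direction: 3 of the 27 members tested were higher and 3 lower (median log2 fold change -0.11). Of the lipid droplet proteins HILPDA and PLIN2 rose (2.83 and 1.05), and ABHD5, an activator of fat breakdown at the droplet, fell (-1.33). The lipid phosphatase LPIN2 was higher (1.23), while GPAM, the first enzyme of glycerolipid synthesis, and the fatty acid binding protein FABP5 fell (-1.79 and -1.06). FASN had -0.4 and SCD 1.1, neither called. Without 24 h replicate 3 there was 1 higher. LPIN2 was not called without any one of 5 libraries (0.99 without 24 h replicate 3 to 1.32, adjusted p from 0.012 to 0.028), nor PLIN2 without 24 h replicate 3 (0.93) or FABP5 without 0 h replicate 1 (-0.97) or 24 h replicate 3 (-0.88). In cholesterol synthesis and uptake 2 of the 28 members tested were higher and 1 lower, or 0 and 5 under TPM (median log2 fold change -0.02), with SREBF2, the master regulator of the pathway, and STARD4 higher (1.48 and 1.21). SREBF2 was not called without 0 h replicate 1 (1.24), nor STARD4 without any one of 4 libraries (1.04 without 0 h replicate 1 to 1.24).

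Most genes of DNA replication were called lower, and few of those of mitosis. Of the replication and S-phase genes 0 of the 66 members tested were higher and 46 lower (median log2 fold change -1.31). For 63 of the 66 all 24 h libraries lay under all 0 h libraries, beside 34.0% of all genes. The helicase subunit MCM2 fell from 63.9, 76.5 and 77.9 to 26.9, 21.7 and 25 FPKM (log2 fold change -1.55 ± 0.14 SE, adjusted p = 3.1e-06). MCM10, which loads the polymerase at origins, went from 38.5, 38.8 and 36.4 to 6.97, 6.02 and 6.34 FPKM, and CCNE2, the cyclin of S-phase entry, from 18.6, 20.7 and 20.7 to 3.2, 2.86 and 3.52 (log2 fold change -2.47 for both). The groups were clearly apart for all of these. CDC6, the loader of the helicase, had -1.55 and RRM2, the ribonucleotide reductase subunit, -1.12. Of the G2/M and mitosis genes 0 of the 68 members tested were higher and 5 lower, or 0 and 23 under TPM (median log2 fold change -0.33). However, 39 of the 68 had all 24 h libraries under all 0 h libraries, beside 34.0% of all genes. By the adjusted p with no minimum fold 29 were lower, beside 24.0%. Without 0 h replicate 3 there were 8 lower, with CDCA5 (-1.05), KIF23 (-1.01) and NCAPH (-1.01) added, and without 24 h replicate 1 also 8. TOP2A measured 62.7, 54.9 and 59.7 FPKM at 0 h and 60.6, 61.8 and 67.7 at 24 h, with overlapping groups. PLK1 (-0.81) and AURKA (-0.31) were not called, and CCNB1 fell from 350.5, 331 and 302 to 187, 168 and 125, a call that ended without 24 h replicate 3 (-0.89). The difference between these lists was not tested, and in bulk RNA fewer cells in S phase and less RNA per cell cannot be told apart. The study measured cell cycle phase by flow cytometry and reported no appreciable effect of hypoxia on the profile. Those data are not analysed here.

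Sites for the E2F factors, which are known to drive replication genes, are shown for 3 genes that fell. The letters searched on both strands were TTTGGCGC, TTTCCCGC, TTTGCCGC and TTTCGCGC, in capitals below, and the windows read in the direction of transcription.
MCM2: gaaccactTTTCGCGCgaaacctgg
CDC6: cattcggaTTTGGCGCgagcgcggc
MSH6: cccccagaTTTCCCGCcagcaggag
They lie at chr3:127598405-127598429, chr17:40287878-40287902 and chr2:47783140-47783164 (GRCh38.p14, + strand). Such a site occurred in 24 of the 55 promoters matched for the replication list (43.6%), in 8.89% of genes lower at 24 h, 3.07% of genes higher, 5.55% of genes tested and 3.33% of the whole table. RRM2, MCM10, TIPIN, BRCA1 and CHEK1, which also fell, held none of these letters in the window, and FANCD2, which was not called, held 1 match. The E-box CACGTG, the element of MYC and MAX, occurred in 20 of 58 promoters of ribosome biogenesis factors (34.5%), against 16.3% of genes lower, 11.2% of genes higher and 10.4% of genes tested. In the HIF-inducible list it occurred in 10 of 33 (30.3%). NOP56, DKC1 and POLR1B, which fell, held no E-box in the window, and FBL, which was not called, held 2.

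Several inhibitors of the cycle rose. In the G1 list 6 of the 20 members tested were higher and 4 lower, or 2 and 7 under TPM (median log2 fold change -0.26). The inhibitors CDKN1A, CDKN1B, CDKN1C, CDKN2B and CDKN2D rose, with log2 fold changes of 1.5, 1.02, 2.83, 2.02 and 1.07, as did the pocket protein RBL2 (1.23). CDKN1A measured 54, 64.4 and 66.7 FPKM at 0 h and 184, 156 and 187 at 24 h. CCND3, CDK4, SKP2 and RBL1 fell (-1.63, -1.16, -1.37 and -1.44), and CCND1 had -0.95 and was not called. Without 24 h replicate 2 or 3 CDKN1B was not called (0.90 and 0.98), nor CDKN2D without 0 h replicate 1 (0.92) or 24 h replicate 1 (0.97), while CCND1 was called without 0 h replicate 3 (-1.04) or 24 h replicate 3 (-1.18). Of the p53 targets 7 of the 29 members tested were higher and 1 lower, or 1 and 4 under TPM (median log2 fold change 0.29), a median that was -0.52 under TPM. GDF15, a stress cytokine, rose from 21.4, 29.2 and 34.8 to 340.4, 303 and 249.9 FPKM, whereas MDM2, the p53 ubiquitin ligase, had -0.21 and was not called. In the MYC network MYC itself overlapped between groups, at 184, 154 and 146 FPKM at 0 h and 116, 147 and 173 at 24 h. The antagonists of MYC that pair with MAX rose: MXI1 from 14, 13.5 and 15 to 100.04, 134 and 157 FPKM, MXD4 from 0.988, 2.26 and 2.68 to 15.1, 12.8 and 12.1, and MXD1, MNT and MXD3 with log2 fold changes of 2.38, 1.28 and 1.27. Those 5 were the members called of the 12, and none was lower. Without 0 h replicate 1 there were 3. MNT was not called without any one of 3 libraries (0.99 without 24 h replicate 3 to 1.26), nor MXD3 without 0 h replicate 1 (1.01) or 24 h replicate 1 (1.11).

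Of the repair genes, those of recombination and mismatch repair that were called were all lower. Of the homologous recombination, Fanconi and checkpoint genes 0 of the 49 members tested were higher and 20 lower (median log2 fold change -0.89). BRCA1 fell from 12.1, 12.6 and 13 to 4.52, 5.07 and 4.1 FPKM and the checkpoint mediator CLSPN from 23.5, 27 and 26.3 to 6.0, 4.12 and 5.02. TP53BP1, which favours end joining, had -0.27 and was not called, nor was FANCD2 (-0.93), except without 24 h replicate 3 (-1.02). Of the mismatch repair genes 0 of the 8 members tested were higher and 4 lower (median log2 fold change -0.98). MSH6 had a log2 fold change of -1.06, and the exonuclease EXO1 went from 25.3 ± 0.71 to 6.27 ± 0.468 FPKM (SD, n = 3 each). In nucleotide excision repair 1 of the 24 members tested was higher and 2 lower (median log2 fold change -0.27), both shares being under those of all genes: the damage sensor DDB2 rose (1.5), and the TFIIH subunits GTF2H2 and GTF2H3 fell (-2.03 and -1.3). GTF2H2 has near-identical copies, GTF2H2B and GTF2H2C, which were also lower, and the reads among them are uncertain.

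Signalling and epithelial genes were mostly higher where they moved with the values as deposited. Under TPM few calls remained and the direction was mixed. There, 3 were higher and 2 lower among MAP kinase phosphatases and feedback inhibitors, and 2 and 1 among immediate early factors. The counts under TPM were 2 and 2 in the Wnt list, 1 and 1 in the junction list and 0 and 0 in the EGF receptor list. Of the MAP kinase phosphatases and feedback inhibitors 8 of the 17 members tested were higher and 1 lower (median log2 fold change 0.96). SPRY1 rose from 0.651, 0.657 and 0.609 to 13.2, 13.5 and 14.3 FPKM and ERRFI1, an inhibitor of EGFR, from 186, 182 and 185 to 1022, 1197 and 1155, while DUSP2 fell from 8.17 ± 0.711 to 2.44 ± 0.666 (SD, n = 3 each), a call that ended without any of 4 libraries (-1.42 to -1.58). EGFR and its ligands TGFA and AREG rose (1.33, 1.55 and 1.4), 3 of the 9 tested, with a median of 0.24 that was -0.40 under TPM. Of the immediate early factors 7 of the 22 members tested were higher and 0 lower (median log2 fold change 0.87), led by KLF4 (2.86) and FOSL2 (2.33). In the Wnt list 7 of the 26 members tested were higher and 0 lower (median log2 fold change 0.46, -0.22 under TPM), with WNT6 at 2.32 and the Wnt inhibitor NOTUM at 2.23, while AXIN2, a common readout of the pathway, had -0.91 and was not called. Of the NF-kB list 4 of the 14 members tested were higher and 1 lower, or 0 and 1 under TPM (median log2 fold change 0.68, -0.05 under TPM). Without 24 h replicate 1 there were 2 higher, as TNFAIP3 (1.00) and RELB (0.97) were not called. NFKB2 rose from 29.4 ± 2.27 to 76.5 ± 7.43 FPKM (SD, n = 3 each). Of the junction and mesenchymal genes 8 of the 25 members tested were higher and 0 lower (median log2 fold change 0.62, -0.17 under TPM). E-cadherin (CDH1) rose from 7.98, 5.87 and 6.93 to 21.2, 23.4 and 26.3 FPKM, the tight junction proteins TJP3 and CLDN4 had 3.64 and 1.6, and VIM, a mesenchymal filament, stayed low at 3.47, 5.83 and 6.08 FPKM and was not called. Over the alternative settings the log2 fold change of VIM ran from -0.027 to 1.02. The mesenchymal gene FN1 was called higher, a call that ended without any one of 4 libraries (0.87 to 1.03). ELF3, an epithelial transcription factor, rose from 8.81, 12.7 and 15.9 to 133, 146 and 117 FPKM. In the BCL2 family 3 of the 17 members tested were higher and 1 lower (median log2 fold change 0.12, -0.53 under TPM); beside the mitophagy receptors, BBC3 (PUMA) rose (1.68) and BAK1 fell (-1.12).

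Several enzymes that use oxygen and 2-oxoglutarate, the chemistry of the EGLN sensors, rose. Of the collagen hydroxylases and lysyl oxidases 6 of the 14 members tested were higher and 1 lower (median log2 fold change 0.43, -0.36 under TPM). The prolyl hydroxylase subunit P4HA1 rose from 18.1, 15.5 and 16.9 to 176, 240.4 and 248 FPKM (log2 fold change 3.67 ± 0.14 SE, adjusted p = 1.1e-08) and the lysyl hydroxylase PLOD2 from 5.86, 6.94 and 7.99 to 99.1, 106 and 91. Every 24 h library of these genes was far above the 0 h values, while PLOD3 had -0.43 and was not called. LOXL3, an amine oxidase that needs oxygen but not 2-oxoglutarate, fell with -1.38. Of the Jumonji demethylases 8 of the 22 members tested were higher and 2 lower, or 2 and 3 under TPM (median log2 fold change 0.53, -0.22 under TPM). KDM3A, which removes H3K9 methylation, rose from 8.9, 8.82 and 10.8 to 93.6, 102 and 110.2 FPKM (log2 fold change 3.36 ± 0.12 SE, adjusted p = 1.1e-08), KDM4B had 2.39 and KDM6B 1.85. JMJD4 and MINA, which hydroxylate proteins of translation and the ribosome, fell (-2.03 and -1.6).

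Nearly all splicing factors that were called were lower. Of the SR proteins with their kinases and TRA2 factors 1 of the 19 members tested was higher and 9 lower (median log2 fold change -0.81). SRSF2 fell from 323, 292 and 262 to 63.7, 71.7 and 70.4 FPKM, SRSF7 had -1.89 and SRSF1 -1.43, and the kinase CLK3 was the gene that rose (1.58). Of the hnRNP and snRNP list, which holds pseudogenes too, 0 of the 66 members tested were higher and 20 lower (median log2 fold change -0.75), with HNRNPM at -1.95 and HNRNPA1 at -0.36, not called. Of the polyadenylated histone transcripts 3 of the 34 members tested were higher and 5 lower (median log2 fold change -0.25). These counts were unstable: leaving out 1 library gave 1 to 5 higher and 3 to 5 lower, with 1 and 3 without 0 h replicate 1, 5 and 3 without 24 h replicate 1, and 3 and 3 without 0 h replicate 3 or 24 h replicate 3. HIST1H2BD rose from 3.2 ± 1.32 to 16.2 ± 2.4 FPKM (SD, n = 3 each), and the poly(A) selection of these libraries misses most histone mRNA. In the zinc finger family 15 of the 345 members tested were higher and 24 lower (median log2 fold change -0.12), both shares being under those of all genes. Median-of-ratios scaling gave 20 and 17, and TPM 5 and 74. ZNF160 was among those higher (3.14 ± 0.293 to 15.4 ± 0.861 FPKM, SD, n = 3 each) and ZNF124 among those lower (-1.91). Of the nuclear long noncoding RNAs 4 of the 24 members tested were higher and 2 lower, or 3 and 5 under TPM (median log2 fold change 0.16, -0.70 under TPM). MIR210HG, the host of a hypoxia-induced microRNA, rose from 0.103, 0.819 and 0.494 to 12.2, 11.7 and 10.04 FPKM, UCA1 from 11.2, 12.2 and 13.3 to 98.4, 79.1 and 65.6 and H19 with 1.96. MALAT1 and NEAT1 had 0.89 and 0.04 and were not called. UPK1A-AS1, RP11-798M19.6 and RP11-565A3.2 also rose, with log2 fold changes from 3.69 to 4.23. VPS9D1-AS1 fell from 10.1, 10.4 and 12 to 0.95, 0.398 and 0.512 FPKM, in libraries quantified by strand.

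Under the naming rule the deepest fall was that of RTEL1, a helicase of telomeres, from 9.85, 8.02 and 6.9 to listed values of 0.0378, 0 and 0.0716 FPKM (log2 fold change -4.02 ± 0.23 SE, adjusted p = 1.9e-07). It shares a locus with TNFRSF6B, a decoy receptor that rose from 4.77, 12 and 17.4 to 192, 216 and 283 FPKM, so the division of reads between the 2 genes is uncertain. TOE1, a deadenylase that trims small nuclear RNAs, fell from 18.7, 14.2 and 16.9 to 1.94, 1.27 and 1.17 FPKM and GPATCH4, a nucleolar protein, from 97.5, 86.1 and 71.4 to 9.41, 10.04 and 10.3. The groups were far apart in each. GPCPD1, SFXN2, CHAC2, PYCRL, FAM111B, TAF9B and GTF2H2C completed the group, with log2 fold changes from -2.92 to -2.56. SFXN2 is a mitochondrial amino acid carrier, CHAC2 degrades glutathione, and PYCRL makes proline.

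**Figure D4:**
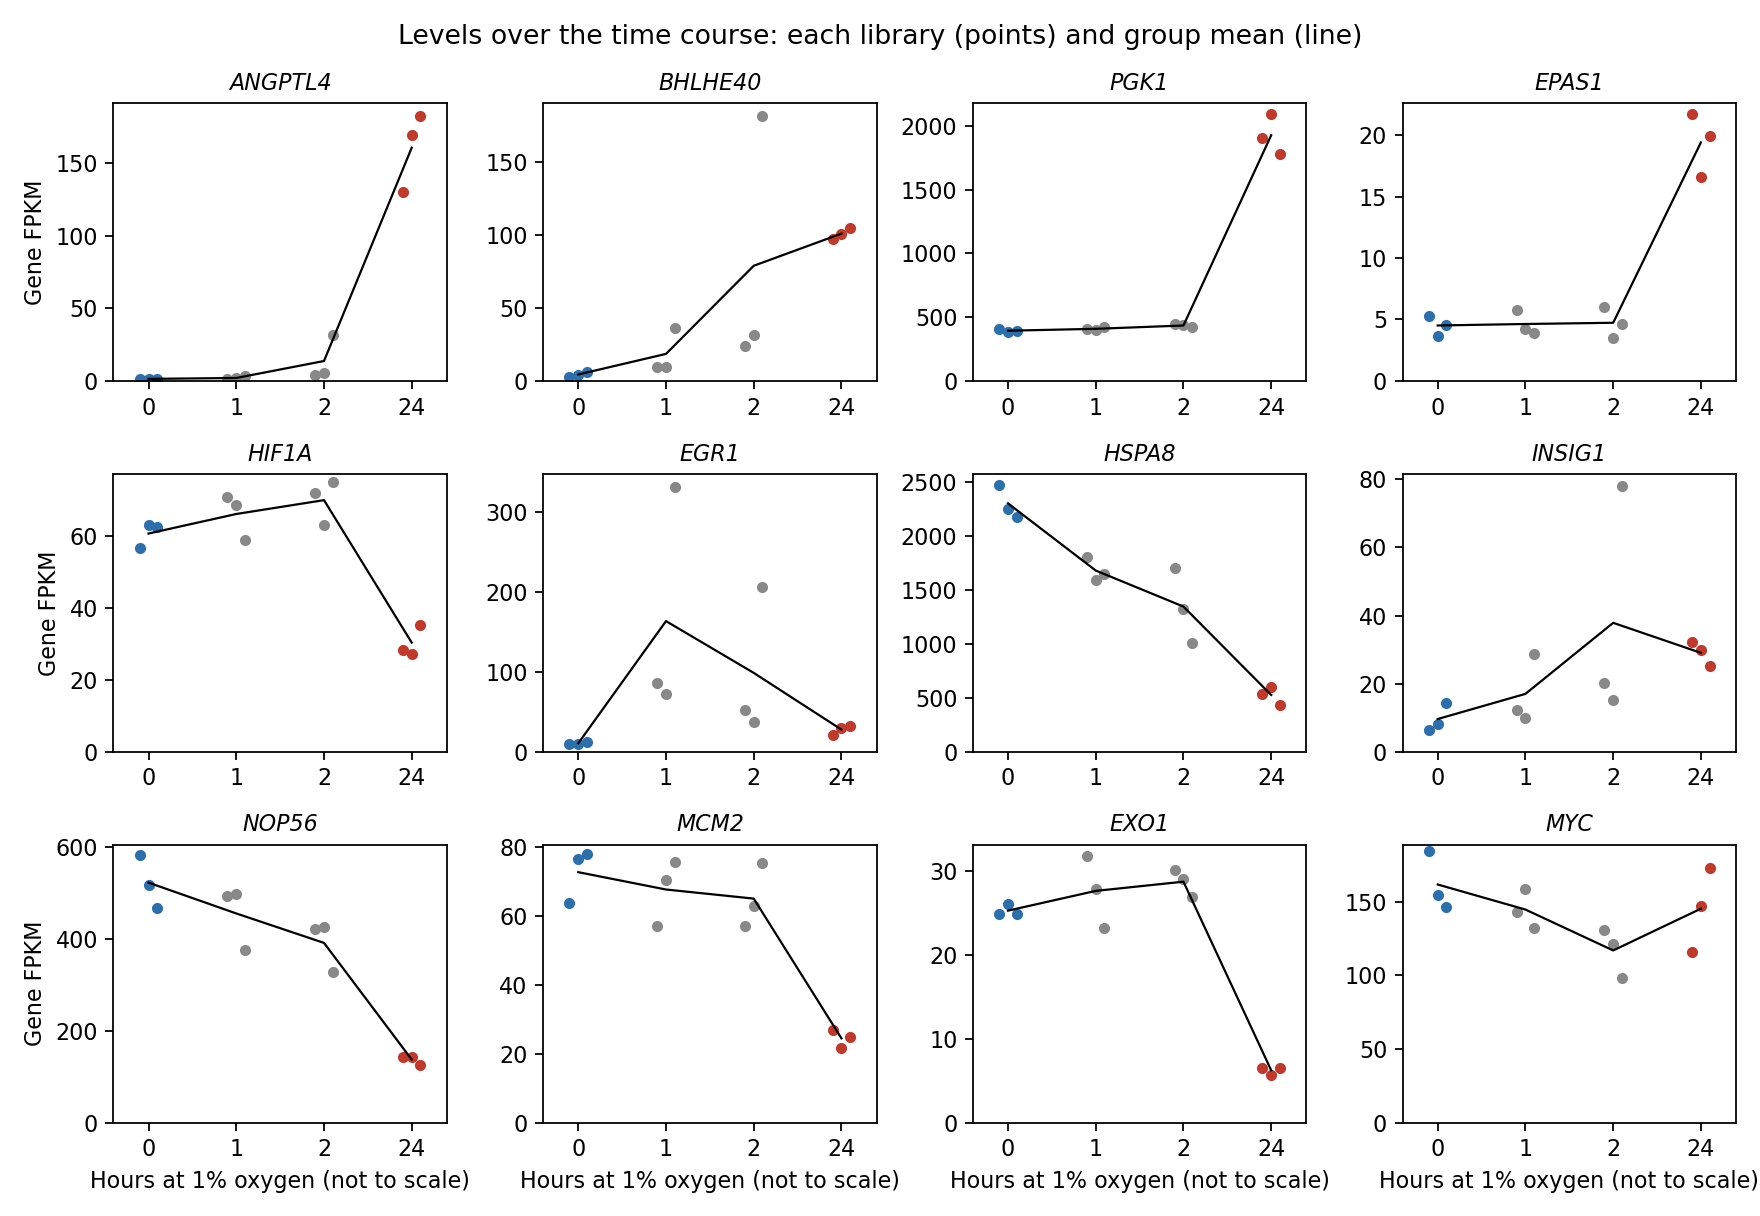
FPKM of each library (points) and group mean (line) of 12 genes at 0, 1, 2 and 24 h, with the time axis not to scale. ANGPTL4, PGK1 and EPAS1 have their highest mean at 24 h. All 2 h libraries of ANGPTL4 and PGK1 already lie above those of 0 h, though neither was called there, and EPAS1 overlaps. HIF1A and EXO1 fall after 2 h, whereas EGR1 has its highest mean at 1 h (164 FPKM) and HSPA8 declines from 1 h on.

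Whether the 24 h levels had been reached by 2 h was asked by testing both times against each other. Relative to 2 h, 1085 genes were higher at 24 h (6.89%) and 1274 lower (8.08%). Under TPM the split turned, with 492 higher and 85 lower. Against 0 h, 5 genes were called at 2 h (0.0317%) and 1 at 1 h (0.00635%). The comparisons share libraries with each other. Replicate 3 stood apart at 2 h for several early genes: BHLHE40 had 23.8, 31.4 and 182 FPKM there, DDIT4 71.7, 126 and 537 and INSIG1 20.2, 15.4 and 78. Without that library, 1166 genes were higher and 1441 lower at 24 h than at 2 h. The 5 genes called at 2 h were ERRFI1, KDM3A, MAFF, PIM1 and SPRY1, all higher. KDM3A averaged 20.3 FPKM at 2 h and 102 at 24 h, and SPRY1 2.57 and 13.7. MAFF was nearly level after 2 h, at 22.3 and 26.3 FPKM (log2 fold change 0.24, not called).

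Many genes of metabolism and growth differed between 2 h and 24 h. Of the glycolysis list 18 of 27 were higher at 24 h than at 2 h, and of the HIF-inducible list 31 of 45, against 11 and 24 under TPM. PFKFB4 averaged 3.75 FPKM at 2 h and 67.2 at 24 h, and LOXL2 2.46 and 66.3. Lower at 24 h than at 2 h were 49 of 66 replication genes and 48 of 70 ribosome biogenesis factors, against 8 and 9 under TPM. HIF1A was called lower than at 2 h (log2 fold change -1.2 ± 0.12 SE, adjusted p = 7.5e-06), which it was not against 0 h. Under TPM this turned around: HIF1A was called lower against 0 h (-1.82), and 0 members of its list were lower than at 2 h. Replicate 3 stood apart at 1 h too. EGR1 had 86.4, 72.7 and 332 FPKM at 1 h and 20.8, 30.4 and 32.4 at 24 h, and FOS 9.39, 8.2 and 51.7 and 8.74, 7.22 and 4.99, and neither was called at 24 h against 0 h or 2 h. Among cholesterol genes, HMGCS1 averaged 22.4, 36.5 and 18.3 FPKM at 0, 2 and 24 h, with no call in any of these comparisons.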

How the data were processed

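RNA-seq was analysed for HCT116 cells at 0, 1, 2 and 24 h of 1% O2, 3 libraries each, grouped by their labels. The authors deposited FPKM per transcript and library; per their methods and labels, reads were aligned to hg19 (GRCh37) with MapSplice, and transcripts were assembled with Cufflinks, with strand specified, and merged with Ensembl models. Estimated FPKM can divide reads among overlapping or near-identical genes. The total of a library is not a depth here, and depth limits the precision to an unknown degree. A table of transcript attributes (class code, gene name, locus, length) came with it; its lengths were used as other values.

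For each gene name the FPKM of transcripts with class code = or j and FPKM above 0.5 in at least 3 libraries were summed (62162 transcripts, 15758 genes), without rescaling. Identifiers, types and positions came from GENCODE release 44 lifted to GRCh37 (15213 genes matched). Genes of the mitochondrial genome, listed at 0 in most libraries, did not pass the filter and were not used. All 12 libraries entered lmFit and eBayes with trend in limma 3.58.1 (R 4.3.3) on log2(FPKM + 0.5), with Benjamini-Hochberg adjustment over all genes. Tables and figures used Python 3.11.15, numpy 2.4.6, pandas 2.3.3 and matplotlib 3.10.9. Tested on simulated data of this comparison, with 200 of 15758 genes changed, the fit called 92% of those at a log2 change of 1.5, 99% at 2.5 and 0 unchanged genes. The changed genes were drawn above a minimum level, as many rose as fell, and the noise was normal and independent between libraries. Changes in low genes, uneven libraries and shifts in scaling were not simulated. These rates therefore need not hold for the reported calls.

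Genes were named by rule: the 12 per direction with the largest change (called, mean FPKM of at least 5 in the higher group, no overlap, mostly on transcripts of 300 bases or more), the key members of each list, up to 2 further called members per list and direction, and 5 long noncoding genes per direction. Some genes that the rule named are not reported here. Other genes are named as examples from a list after their values were seen. The members and lists were chosen with earlier results of these data known. Alternatives covered scaling, pseudocount, filter, class code, length, libraries, the replicate number as a block and the thresholds.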

Additional observations from a re-analysis of the deposited data

Results flagged for a closer look

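Some genes moved to opposite sides of the 0 h level at 2 h and at 24 h, with every 2 h library on one side of all 0 h libraries and every 24 h library on the other, and with a called difference between 24 h and 2 h. Over all genes 132 were above 0 h at 2 h and under it at 24 h, and 83 the reverse. Among the named genes, HIGD1A (log2 fold change 24 h over 2 h -1.49), EXO1 (-2.11) and SLC7A11 (-2.01) belonged to the former, and GYS1 (1.06) and P4HA2 (1.75) to the latter. EXO1, for example, averaged 25.3, 28.8 and 6.27 FPKM at 0, 2 and 24 h. The changes at 2 h were not called on their own (limma adjusted p from 0.12 to 0.56).

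Some classes of transcripts outside the annotated genes also differed. The 776 unannotated transcripts of at least 300 bases summed to 1741 ± 75.2 FPKM before and 3909 ± 387 after 24 h (SD, n = 3), a ratio of 2.25 with no overlap between libraries. The 476 transcripts of 300 bases or more that overlap a gene without sharing its splice sites had a ratio of 1.3, also without overlap. In other classes the libraries of the groups overlapped. The ratio was 2.19 for 415 transcripts of 300 bases or more antisense to annotated exons, and 3.63 for 479 unannotated transcripts under 300 bases. None of these classes was tested further.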

How the results depend on the processing

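With the values as deposited, 1315 genes were higher and 1654 lower at 24 h than at 0 h, and 1085 and 1274 against 2 h. Rescaling to TPM gave 220 and 3915 against 0 h and 492 and 85 against 2 h. With the adjusted p alone the counts were 2609 and 3782, and 2241 and 3329. Median-of-ratios scaling gave 1590 and 1268 against 0 h, and rescaling over transcripts of at least 300 bases 1245 and 2010. The other settings kept each count within 1.5 times its value. Leaving out 1 library gave 1119 to 1356 higher and 1441 to 1776 lower against 0 h, and 926 to 1166 and 1129 to 1441 against 2 h.

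Deviations of same-numbered libraries at 0 h and 24 h correlated at 0.016, 0.015 and 0.245, and those at 2 h and 24 h at -0.00081, 0.094 and 0.144. Replicate 3 gave the highest value in both. Such correlations cannot show whether the replicate numbers pair the libraries, and the fit used no pairing. With the replicate number as a block, 1352 genes were higher and 1676 lower against 0 h, of which 1304 and 1648 were also called without it, and 1118 and 1298 against 2 h.

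Under TPM the medians of 12 lists turned from positive to negative, and relative to the median of all genes 7 lists near 0 changed side. Median-of-ratios scaling turned 4 medians near 0, those of oxygen sensing, the unfolded protein response, cholesterol and iron. Of 259 genes that the rule named, 48 lost their call under TPM and 10 gained one, VEGFA (log2 fold change 1.06) and LDHA (0.84) among the former and HIF1A (-1.82) among the latter. No called gene changed direction. Leaving out 1 library also moved counts of 0 to 2 called members by 1 or 2 in several lists. Genes not called that did so under TPM were GYS1 (-0.10), TKT (-0.24), TOMM20 (-0.57), RPS6 (-0.54), EIF4EBP1 (-0.55), DDIT3 (-0.32), HERPUD1 (-0.31), NQO1 (-0.30), TOP2A (-0.76), XPC (-0.58), JUN (-0.17), VIM (-0.027), BCL2L1 (-0.40), MCL1 (-0.53), SQSTM1 (-0.72), MAP1LC3B (-0.26), CLK1 (-0.41) and NEAT1 (-0.79). With median-of-ratios scaling these were FBL (0.032), PHGDH (0.027) and HIST1H2BK (0.11), and over transcripts of at least 300 bases NEAT1 (-0.024). Over the libraries left out, the log2 fold change ran from -0.12 to 1.17 for DDIT3, -0.34 to 0.12 for PHGDH, -0.45 to 0.090 for HSPA5, -0.11 to 0.14 for HIST1H2BK, -0.30 to 0.084 for HIST1H4C and -0.34 to 0.30 for NEAT1. The sources used here give no counts for a gene, so how far depth limits low genes is unknown.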
